A study of Rattus norvegicus with 6 samples.

Results

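The TGF-beta ligands, receptors and Smads were examined in the aorta of spontaneously hypertensive rats (SHR), an inbred strain with inherited high blood pressure. The genes were Tgfb1, Tgfb2, Tgfb3, Tgfbr1, Tgfbr2, Tgfbr3, Acvrl1, Smad2, Smad3 and Smad4, 10 in all, chosen for their place in the pathway. Every probe set whose single gene symbol in the platform annotation was one of these names was taken, which gave 14 of the 8799 probe sets and covered 9 of the 10 genes. Tgfbr2, the receptor that first binds the ligand, had no such probe set and was not analysed here. Runners were SHR given wheel-cage running for 5 weeks and non-runners were SHR that did not run, and each group had 3 Affymetrix rat arrays, called A, B and C. Each array carried total RNA of 3 pooled aortae, and the labels give no age, sex or allocation of the rats. Nothing states how the pools were made up, so p-values measure only the spread between arrays, which may be technical.

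TGF-beta is made as a precursor that stays latent in the matrix, bound to its own propeptide and to latent TGF-beta binding proteins, until it is released. The free ligand binds Tgfbr2, which then activates the kinase receptor Tgfbr1, or in endothelial cells also Acvrl1 (ALK1), while Tgfbr3 (betaglycan) presents ligand to them. Tgfbr1 phosphorylates Smad2 and Smad3, which enter the nucleus with Smad4 and regulate matrix and contractile genes. In the vessel wall the pathway is known for its part in smooth muscle differentiation, collagen and elastin deposition, and endothelial growth.

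The deposited values were intensities on a linear scale, with array medians of 28.5 to 32.2 and no detection calls. The arrays carry 19 control probe sets with no target in rat RNA (yeast sequences or the sense strand), and the 95th percentile of their readings, 40.8, served as the control level. On each array, 55.4% to 57.5% of the other probe sets read below it. Smooth muscle, the main cell of the aortic wall, was evident from Acta2, smooth muscle actin, whose brightest probe set read 3896 to 4412 on runner arrays and 2913 to 4648 on non-runner arrays. Array B of the non-runners differed most from the others. Its 3'/5' intensity ratio of beta-actin, a measure of RNA integrity, was 2.14, against 1.28 on non-runner A and 1.67 on non-runner C. The runner arrays had 1.22 to 1.43, so non-runner C also exceeded each of them. Non-runner B was the highest of the 6 arrays in 30.5% and the lowest in 27.7% of tested probe sets. As tissue was measured in bulk, fewer cells of a type and less RNA per cell cannot be told apart.

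No member probe set passed the test between runners and non-runners. Of the 14 probe sets, 10 passed the filter on dim probe sets and were tested, for 7 genes, and 0 passed an adjusted p of 0.05 by limma, against 0 (0%) of all 5244 tested probe sets. At an unadjusted p under 0.05 there was 1 of the 10, against 8.07% of all tested probe sets. The log2 difference was above 0 in 3 and below 0 in 7, against 49.2% above 0 among all tested, and the median was -0.14 over the 10 and -0.01 over all tested. Runner and non-runner arrays did not overlap in 3 of the 10, against 14.9% of all tested, with 2 higher in runners (7.36% of all) and 1 lower (7.49% of all). Several of the 10 come from the same gene, and nothing is read from these counts beyond the values of each gene.

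**Figure D1:**
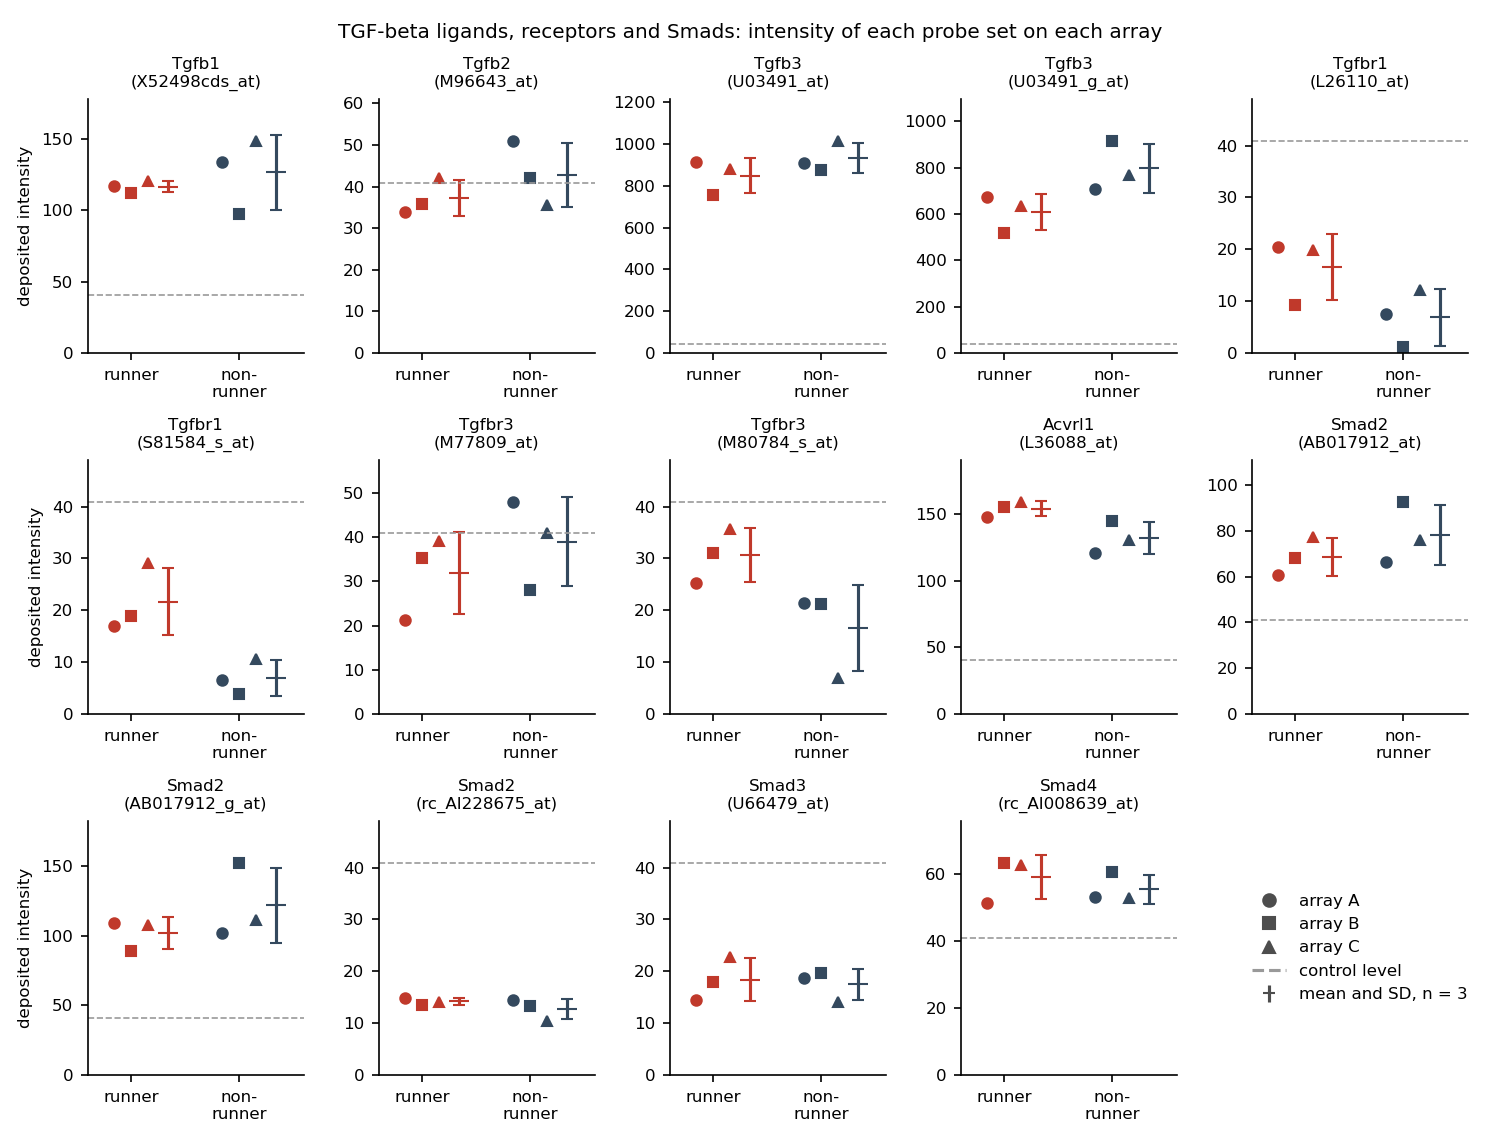
Deposited intensity (linear scale, each panel with its own axis from 0) of the 14 member probe sets on 3 runner arrays (red, left) and 3 non-runner arrays (blue, right), with the mean and SD beside the points and the control level of 40.8 as a dashed line. Tgfbr1, Smad3, the second Tgfbr3 and the third Smad2 probe set lie below the control level on all 6 arrays, while Tgfb1, Tgfb3, Acvrl1, Smad4 and the other 2 Smad2 probe sets lie above it on all 6.

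Among the ligands, Tgfb1, the form best known in vascular matrix and platelets, read 117, 112 and 120 on runner arrays A, B and C, against 134, 97.5 and 148 on non-runner arrays A, B and C. The runner arrays lay within the range of the non-runner arrays, which ran on both sides of them. Mean intensity was 117 ± 4.0 on runner arrays and 127 ± 26.2 on non-runner arrays (SD, n = 3 each), so the spread was wider among non-runners. The log2 difference was -0.09 ± 0.19 (SE, 95% interval -0.52 to 0.34, limma adjusted p = 0.911). It changed sign only without non-runner C, at 0.038, and was -0.036 without non-runner A and -0.27 without non-runner B. All 4 tested markers of blood and platelets, a source of Tgfb1, had values above 0 (46.1% of 3173 genes by their brightest probe set). Of the 4, 2 had an unadjusted p under 0.05 (2.93% of genes were higher at that p) and 0 passed an adjusted p of 0.05 by limma. Their summed intensity was 1808 to 3374 on runner arrays and 1209 to 1643 on non-runner arrays. Without Hbb, a haemoglobin chain and the brightest of them, it was 335.5 to 463 on runner arrays and 290 to 332 on non-runner arrays. The summed intensity of 7 adipocyte markers was 3168.7 to 3972.5 on runner arrays and 2773.8 to 4351.5 on non-runner arrays. That sum, like Tgfb1, was lowest on non-runner B and highest on non-runner C. Non-runner B was the lowest array in 27.7% of all tested probe sets. Of the 7 adipocyte markers, 4 had values above 0 and 3 below. Fabp4 (0.51) and Lpl (-0.38) differed in opposite directions, each without overlap, and 0 passed an adjusted p of 0.05 by limma. The part of blood or fat in the Tgfb1 values was not tested.

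Tgfb2, a ligand with a large part in heart and vessel development, read 33.8, 35.9 and 42.1 on the runner arrays, against 50.9, 42.0 and 35.5 on the non-runner arrays. The groups overlapped and the values lay close to the control level, above it on 1 runner array and 2 non-runner arrays. The log2 difference was -0.20 ± 0.16 (SE, 95% interval -0.58 to 0.17, limma adjusted p = 0.757), and -0.10 without non-runner A, the array with the highest value, or -0.31 without non-runner C, the lowest non-runner array.

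Tgfb3, the third ligand, had 2 probe sets built on the same source sequence, so they are not separate measures of the gene. The first (U03491_at) read 915, 754 and 879 on the runner arrays, against 909, 878 and 1014 on the non-runner arrays, with overlapping groups. Its log2 difference was -0.11 ± 0.16 (SE, 95% interval -0.48 to 0.25, limma adjusted p = 0.861), and -0.012 without runner B, the lowest array, or -0.058 without non-runner C, the highest. The second (U03491_g_at) read 674, 520 and 633 on the runner arrays, against 707, 914 and 770 on the non-runner arrays. Here each runner array was below each non-runner array, by the narrow gap between runner A and non-runner A, and the highest value came from non-runner B. Mean intensity was 609 ± 79.7 on runner arrays and 797 ± 106 on non-runner arrays (SD, n = 3 each), with a log2 difference of -0.35 ± 0.17 (SE, 95% interval -0.73 to 0.04). The difference did not pass (limma adjusted p = 0.650), and it was -0.26 without non-runner B and -0.24 without runner B. All 4 ligand probe sets thus had values below 0, and none passed the test. Markers of nerve and Schwann cells also read lower: all 4 tested were below 0 (53.9% of genes), 3 of them at an unadjusted p under 0.05 (4.48% of genes were lower at that p) and 0 past an adjusted p of 0.05 by limma. Their summed intensity was 1000 to 1076 on runner arrays and 1247 to 1528 on non-runner arrays, without overlap. Pmp22, the brightest of them, read 771 to 814 on runner arrays and 897 to 1170 on non-runner arrays. Snap25 exceeded the control level on 1 non-runner array only, and Th on 1 runner array and 3 non-runner arrays. Smooth muscle markers had 3 of 6 values above 0 and fibroblast markers 2 of 5, with 0 past an adjusted p of 0.05 by limma. The part of these cell types in the ligand values was not tested.

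Among the receptors, Acvrl1, a type I receptor known from endothelial cells, read 148, 155 and 159 on the runner arrays, against 121, 145 and 130 on the non-runner arrays. Each runner array was above each non-runner array, though runner A and non-runner B lay close together. Mean intensity was 154 ± 5.5 on runner arrays and 132 ± 12.3 on non-runner arrays (SD, n = 3 each). The log2 difference was 0.24 ± 0.15 (SE, 95% interval -0.097 to 0.57), which did not pass (limma adjusted p = 0.712). It was 0.30 without non-runner B and between 0.17 and 0.34 in every alternative run. Of the 6 endothelial markers with a tested probe set, 5 were below 0 (53.9% of genes) and Pecam1, an adhesion molecule of endothelial cells, was above 0. At an unadjusted p under 0.05, 3 were lower (4.48% of genes) and 0 passed an adjusted p of 0.05 by limma (smallest 0.229). Beside Egfl7 these were Nos3 (-0.51 ± 0.21) and Flt1 (-0.44 ± 0.19, SE). Icam2 lay below the control level on all 6 arrays. Nos3 had other probe sets on both sides of 0, and the other Thbd probe set was above 0 (0.41). Pecam1 read 184, 167 and 161 on the runner arrays, against 195, 79.2 and 126 on the non-runner arrays, above the control level on all 6, with a log2 difference of 0.45 ± 0.30 (SE, limma adjusted p = 0.726). Its groups overlapped, and its lowest value came from non-runner B. The summed intensity of the 6 markers was 491 to 505 on runner arrays and 536 to 663 on non-runner arrays. Most of that gap came from Egfl7, a secreted endothelial protein, at 37.2, 34.1 and 14.6 on the runner arrays and 86.7, 140 and 130 on the non-runner arrays. Its other probe set was removed by the filter and read 4.1 to 6.6 over the 6 arrays. Without Egfl7 the sums overlapped, at 467.5 to 476 on runner arrays and 396 to 576 on non-runner arrays. Vwf and Kdr read below the control level on all 6 arrays, and the part of endothelial content in the Acvrl1 values was not tested.

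Tgfbr1, the type I receptor that phosphorylates Smad2 and Smad3, had 2 probe sets from different source sequences, both removed by the filter and below the control level on all 6 arrays. The first (L26110_at) read 20.5, 9.3 and 19.9 on the runner arrays, against 7.5, 1.1 and 12.1 on the non-runner arrays. The second (S81584_s_at) read 17.0, 19.0 and 29.1 on the runner arrays, against 6.6, 3.8 and 10.7 on the non-runner arrays. In the second each runner array was above each non-runner array, and in the first runner B lay between the non-runner arrays. Neither is established as signal, so no fold is given. In a fit with no filter the limma adjusted p was 0.73 for the first and 0.385 for the second, whose unadjusted p was 0.00321. In both, the lowest value came from non-runner B.

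Tgfbr3, the co-receptor betaglycan, had 2 probe sets that ran opposite ways. The first (M77809_at) read 21.3, 35.2 and 39.1 on the runner arrays, against 47.9, 28.1 and 41.0 on the non-runner arrays, with overlapping groups and 2 non-runner arrays above the control level. The second (M80784_s_at) read 25.3, 31.0 and 35.7 on the runner arrays, against 21.5, 21.3 and 7.0 on the non-runner arrays. There each runner array was above each non-runner array, and all 6 lay below the control level. The second was the 1 member probe set at an unadjusted p under 0.05 (limma adjusted p = 0.585), while the first had a limma adjusted p = 0.755. No fold is given for either, as the brighter group's mean lay below the control level in both.

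Smad2, which carries the signal of the type I receptor to the nucleus, had 3 probe sets. The first (AB017912_at) read 60.7, 68.1 and 77.1 on the runner arrays, against 66.4, 92.4 and 76.0 on the non-runner arrays. The second (AB017912_g_at), from the same source sequence, read 109, 88.8 and 108 on the runner arrays, against 102, 152 and 112 on the non-runner arrays. In both the groups overlapped and non-runner B was the highest array. The log2 differences were -0.17 ± 0.17 (SE, limma adjusted p = 0.802) and -0.24 ± 0.19 (SE, limma adjusted p = 0.765). Without non-runner B they were -0.052 and -0.069, without non-runner A, the lowest non-runner array, -0.29 and -0.36, and with each array's beta-actin ratio added to the fit as a covariate 0.013 and -0.031. Without runner B the second was -0.15. The third (rc_AI228675_at) was removed by the filter and read 13.6 to 14.9 on the runner arrays, against 10.5 to 14.4 on the non-runner arrays, all below the control level.

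Smad3, the partner of Smad2 that binds DNA directly, was also removed by the filter and below the control level on every array. It read 14.5, 17.9 and 22.8 on the runner arrays, against 18.7, 19.7 and 14.1 on the non-runner arrays, and the groups overlapped. Smad4, the shared partner that both TGF-beta and BMP Smads need, read 51.4, 63.1 and 62.5 on the runner arrays, against 52.9, 60.4 and 52.7 on the non-runner arrays. It was above the control level on all 6 arrays, with overlapping groups. Its log2 difference of 0.07 ± 0.15 (SE, 95% interval -0.27 to 0.41) did not pass (limma adjusted p = 0.911). It was 0.018 without runner B, 0.017 without non-runner A, 0.13 without runner A, 0.12 without non-runner B and 0.17 with the beta-actin covariate.

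For 8 probe sets of 6 genes the signal was above the control level on at least 1 array of each group. Their 95% intervals bound the difference in measured intensity that these arrays leave room for. The ratio of runners over non-runners ran from 0.602, the lower bound for the second Tgfb3 probe set, to 1.49, the upper bound for Acvrl1. Within single probe sets the interval was 0.697 to 1.27 for Tgfb1, 0.67 to 1.13 for Tgfb2, 0.935 to 1.49 for Acvrl1 and 0.828 to 1.33 for Smad4. These bounds are on the scale of log2(intensity + 2.4) and are not corrected for the number of genes. Tgfb2 read close to the control level, above it on 1 runner array and 2 non-runner arrays. Its interval therefore does not bound a difference in transcript. They do not show that the groups were alike.

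**Figure D2:**
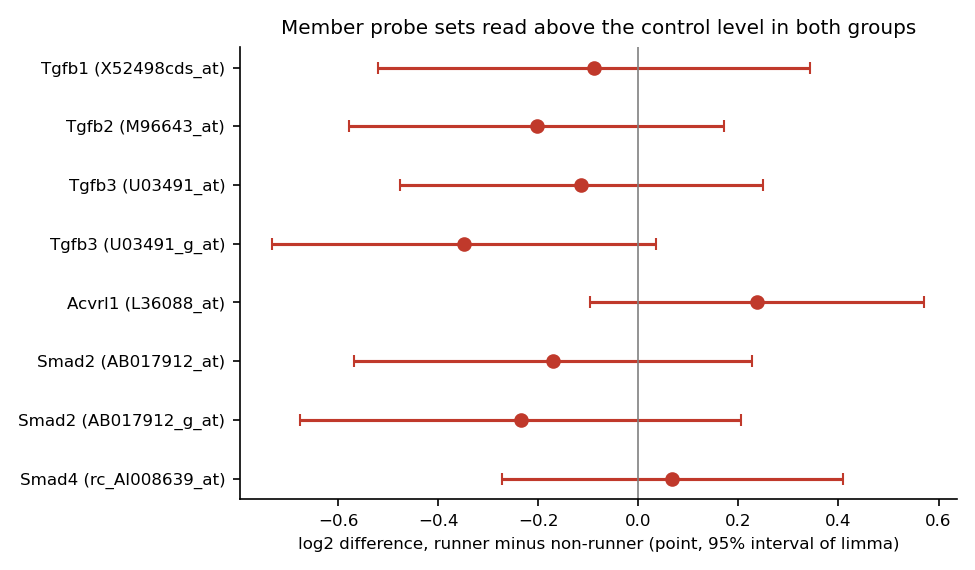
Log2 difference, runner minus non-runner (x axis), of the 8 member probe sets read above the control level on an array of each group, with points for limma's estimate and bars for its 95% interval (n = 3 arrays each). All 8 intervals include 0, with 6 estimates below it and the 2 of Acvrl1 and Smad4 above it.

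Promoter sequence is shown for the members in which runner and non-runner arrays did not overlap in a probe set, so that a reader can see what lies before their starts. These were Tgfb3, Tgfbr1, Tgfbr3 and Acvrl1, chosen after their values were seen. The RefSeq promoter table for the rat assembly GRCr8 matched 8 member genes by symbol, with 3 of these 4 among them. The 250 bases before the start are given 5′ to 3′. Capitals mark the GC box GGGCGG on either strand.
Tgfb3, chr6:111456947-111457196, minus strand: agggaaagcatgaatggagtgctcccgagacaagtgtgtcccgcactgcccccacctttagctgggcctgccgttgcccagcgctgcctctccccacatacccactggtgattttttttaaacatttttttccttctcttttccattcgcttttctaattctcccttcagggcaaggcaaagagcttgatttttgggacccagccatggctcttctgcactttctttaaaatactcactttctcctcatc
Tgfbr1, chr5:66449148-66449397, plus strand: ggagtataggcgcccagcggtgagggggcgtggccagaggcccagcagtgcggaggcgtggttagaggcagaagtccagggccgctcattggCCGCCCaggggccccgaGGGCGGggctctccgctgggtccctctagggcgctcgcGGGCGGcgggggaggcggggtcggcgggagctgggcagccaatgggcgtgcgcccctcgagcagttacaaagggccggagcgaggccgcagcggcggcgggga
Tgfbr3, chr14:2634044-2634293, plus strand: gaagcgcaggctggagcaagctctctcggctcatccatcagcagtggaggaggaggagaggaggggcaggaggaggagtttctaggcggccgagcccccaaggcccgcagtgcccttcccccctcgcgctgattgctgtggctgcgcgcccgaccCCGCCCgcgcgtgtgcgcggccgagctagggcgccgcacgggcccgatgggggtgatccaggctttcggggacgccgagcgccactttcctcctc
The GC box was found at 3 places before Tgfbr1, at 1 before Tgfbr3 and at 0 before Tgfb3, against at least 1 match in 30.5% of 33469 windows of the same length. The letters TATAAA, found in 12.9% of all windows, and the Smad box CAGAC, found in 42.9%, were in none of the 3 on either strand. The share of G and C was 75.6% for Tgfbr1, 71.2% for Tgfbr3 and 48.8% for Tgfb3, against a median of 51.2% over all windows. The arrays hold no reading of promoter activity, and the matches are a description of the letters.

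The other genes of the pathway were taken from 5 lists of 120 genes, of which 80 had a probe set and 61 a tested one. Of these 61, 0 passed an adjusted p of 0.05 by limma in either direction, 3 were higher and 0 lower at an unadjusted p under 0.05 (2.93% and 4.48% of genes), and the median log2 difference of the brightest probe set of each gene was 0.07, against -0.02 over 3173 genes. Eng and Ccn2 were on the lists but had no probe set with that single symbol and were not analysed here.

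Of the other Smads and modulators, 8 of 24 genes were tested, 6 with a value above 0 and 2 below, with a median of 0.13. Smad7, the inhibitory Smad that blocks the type I receptor and is itself induced by TGF-beta, read 87.8, 78.2 and 63.6 on the runner arrays, against 49.6, 24.3 and 50.1 on the non-runner arrays. Each runner array was above each non-runner array, and the lowest value came from non-runner B. The log2 difference was 0.86 ± 0.28 (SE), a ratio of 1.81 with a 95% interval of 1.16 to 2.83, which did not pass over all probe sets (limma adjusted p = 0.562). Leaving out non-runner B gave 0.54, and adding the beta-actin covariate gave 0.53. Ppm1a, a phosphatase known to act on Smad2 and Smad3, read 96.6, 79.3 and 83.2 on the runner arrays, against 65.4, 65.0 and 62.9 on the non-runner arrays, without overlap. Its log2 difference was 0.39 ± 0.15 (SE, limma adjusted p = 0.585). The other Ppm1a probe set, also above 0, came from the same source sequence and is not a separate measure. It read below the control level on every non-runner array. Fkbp1a, which binds the type I receptor and holds it inactive, had a log2 difference of -0.22 ± 0.21 (SE) in the brightest of 4 probe sets. The other 3 were above 0, up to 0.49 ± 0.19 (SE, limma adjusted p = 0.585) in 1 without overlap. The value of the brightest was -0.032 without non-runner B, its highest array, -0.41 without non-runner A, its lowest, and 0.056 with the beta-actin covariate. Cav1, the caveolar protein that takes part in receptor internalisation, had 0.17 ± 0.22 (SE), -0.0080 without non-runner B, 0.37 without non-runner A and -0.14 with the beta-actin covariate.

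Of the genes for latency and activation, 15 of 26 were tested, 9 above 0 and 6 below, with a median of 0.05. Ltbp1, a protein that ties latent TGF-beta to the matrix, averaged 1201 ± 50.7 on runner arrays and 1253 ± 372 on non-runner arrays (SD, n = 3 each), with 1667 on non-runner B. Its log2 difference was -0.0036 ± 0.21 (SE), 0.22 without that array and -0.17 without non-runner A. Ltbp2, a related protein that does not bind latent TGF-beta, read 197, 179 and 200 on the runner arrays, against 176, 22.3 and 149 on the non-runner arrays, with the low value on non-runner B. Its log2 difference was 1.13 ± 0.65 (SE, limma adjusted p = 0.694), while leaving out non-runner B gave 0.24 and adding the beta-actin covariate gave -0.043. The groups did not overlap, by the gap between runner B and non-runner A. Ltbp3, another latent TGF-beta binding protein, read 47.7, 49.2 and 43.3 on the runner arrays, against 36.7, 18.6 and 43.5 on the non-runner arrays. The values lay close to the control level, with only 1 non-runner array above it. The log2 difference of Ltbp3 was 0.52 ± 0.27 (SE), 0.21 without non-runner B and 0.24 with the beta-actin covariate. Dcn, decorin, a proteoglycan that binds TGF-beta, averaged 3268 ± 57.2 on runner arrays and 3947 ± 189 on non-runner arrays (SD, n = 3 each) in its brightest probe set, without overlap (log2 difference -0.17 ± 0.14 SE, or -0.32 with median centring), while its 3 other probe sets were above 0. A2m, a plasma protease inhibitor that binds TGF-beta, averaged 71.8 ± 7.4 on runner arrays and 86.1 ± 6.2 on non-runner arrays in its brightest probe set. There the groups did not overlap, but the difference did not pass (limma adjusted p = 0.694). Values were below 0 in all 4 tested probe sets. Of these, M23566exon_s_at lay below the control level on all 6 arrays and M22670cds_g_at above it on 1 runner array only. Furin, the protease that cleaves the TGF-beta precursor, averaged 188 ± 13.0 on runner arrays and 182 ± 22.1 on non-runner arrays. Plau, the urokinase plasminogen activator, read 32.0 to 46.4 on runner arrays and 21.9 to 29.6 on non-runner arrays, with 1 array above the control level, so no fold is given (limma adjusted p = 0.585).

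Of the other receptors of the superfamily, 4 of 11 were tested, 3 above 0 and 1 below, with a median of 0.15. Acvr1, a type I receptor for activins and BMPs, averaged 43.7 ± 7.8 on runner arrays and 30.6 ± 11.0 on non-runner arrays (SD, n = 3 each), with overlapping groups and a log2 difference of 0.49 ± 0.24 (SE, limma adjusted p = 0.650). That difference was 0.32 without runner A and 0.18 with the beta-actin covariate. Acvr2b, an activin receptor, averaged 108 ± 12.3 on runner arrays and 98.9 ± 20.8 on non-runner arrays. Bmpr1a, a BMP receptor, averaged 50.1 ± 11.2 on runner arrays and 53.9 ± 12.0 on non-runner arrays. Acvr1b, the activin type I receptor that also acts on Smad2 and Smad3, averaged 37.7 ± 8.6 on runner arrays and 32.3 ± 1.1 on non-runner arrays, both below the control level.

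Of the other ligands and antagonists, 9 of 25 were tested, 3 above 0 and 6 below, with a median of -0.11. Bmp4, a bone morphogenetic protein, averaged 33.5 ± 11.1 on runner arrays and 38.9 ± 2.9 on non-runner arrays (SD, n = 3 each), both below the control level. Fst, follistatin, which binds activin, averaged 110 ± 9.3 on runner arrays and 121 ± 7.2 on non-runner arrays. Fstl1, a follistatin-like secreted protein, had 2 probe sets that differed in sign. The brighter averaged 1890 ± 89.1 on runner arrays and 2125 ± 599 on non-runner arrays, with its highest value, 2810, on non-runner B. Its log2 difference was -0.13 ± 0.20 (SE). The other averaged 1116 ± 45.9 on runner arrays and 728 ± 254 on non-runner arrays, without overlap and lowest on non-runner B. Its log2 difference was 0.67 ± 0.25 (SE, limma adjusted p = 0.585). Amh, the hormone that regresses the Müllerian duct, averaged 85.0 ± 15.2 on runner arrays and 94.2 ± 5.4 on non-runner arrays.

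Of the genes that TGF-beta is known to regulate, 25 of 34 were tested, 14 above 0 and 11 below, with a median of 0.05. These counts use the brightest probe set of each gene, with 0.21 for Id3, 0.16 for Col1a1, -0.07 for Lox, 0.05 for Eln and 0.14 for Acta2. Another probe set of Id3 (0.72), Col1a1 (0.49) and Lox (0.41) had an unadjusted limma p under 0.05. Their limma adjusted p were 0.585, 0.606 and 0.585, and each read lowest on non-runner B. They were picked by the unadjusted p, which was under 0.05 in 8.07% of all tested probe sets. Further probe sets lay on both sides of 0, at 0.04 and -0.10 for Col1a1 and at 0.32 and -0.17 for Lox. Those of Tpm1 ran from -0.32, lower in runners without overlap, to 0.23. Timp3, an inhibitor of matrix metalloproteinases, read 274, 283 and 318 on the runner arrays, against 280, 129 and 188 on the non-runner arrays. The groups overlapped through non-runner A, and the log2 difference of 0.61 ± 0.27 (SE, limma adjusted p = 0.625) became 0.33 when non-runner B was left out and 0.12 with the beta-actin covariate. Spp1, osteopontin, averaged 1409 ± 139 on runner arrays and 1240 ± 21.2 on non-runner arrays (SD, n = 3 each), each runner array above each non-runner array (log2 difference 0.20 ± 0.14 SE, or 0.13 without runner B). The cell cycle inhibitors Cdkn2b and Cdkn1a were dim. Cdkn2b read 17.8 ± 2.7 in runners and 23.0 ± 8.9 in non-runners, and Cdkn1a 23.8 ± 4.5 in runners and 34.0 ± 17.1 in non-runners (SD), so no fold is given.

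**Figure D3:**
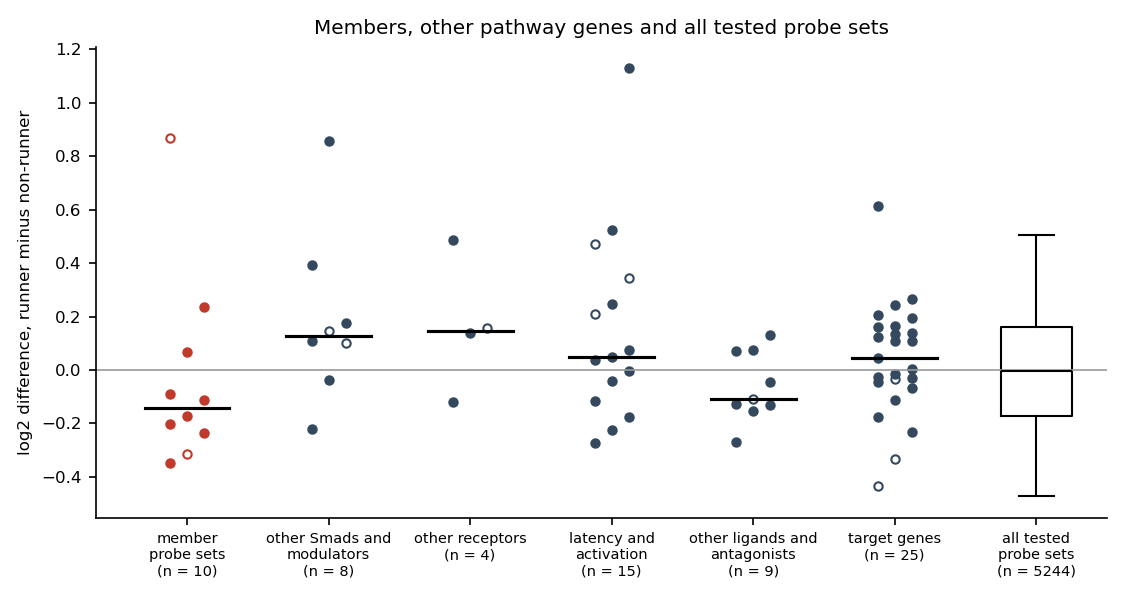
Log2 difference, runner minus non-runner (y axis), for the 10 tested member probe sets (red) and the brightest tested probe set of each gene on 5 pathway lists (blue), with medians as black bars. Open circles had a group with all arrays below the control level, and the box on the right gives the median, quartiles and 5th to 95th percentiles of all 5244 tested probe sets. Of the members and list genes, 0 passed the limma test between runners and non-runners.

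The pattern of Tgfb1 over the 6 arrays was set beside that of 3172 other genes, by the brightest tested probe set of each. The highest Pearson correlations over the 6 arrays were with Rxrg, a retinoid X receptor (r = 0.998, Spearman rho = 1), Git1, a scaffold protein of GTPase signalling (r = 0.974, rho = 0.943), and Ifngr1, an interferon gamma receptor chain (r = 0.964, rho = 0.943), and 22 genes exceeded 0.9. Like Tgfb1, these 3 were lowest on non-runner B and highest on non-runner C. These genes were picked as the highest of all compared, so the values are a description only.

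**Figure D4:**
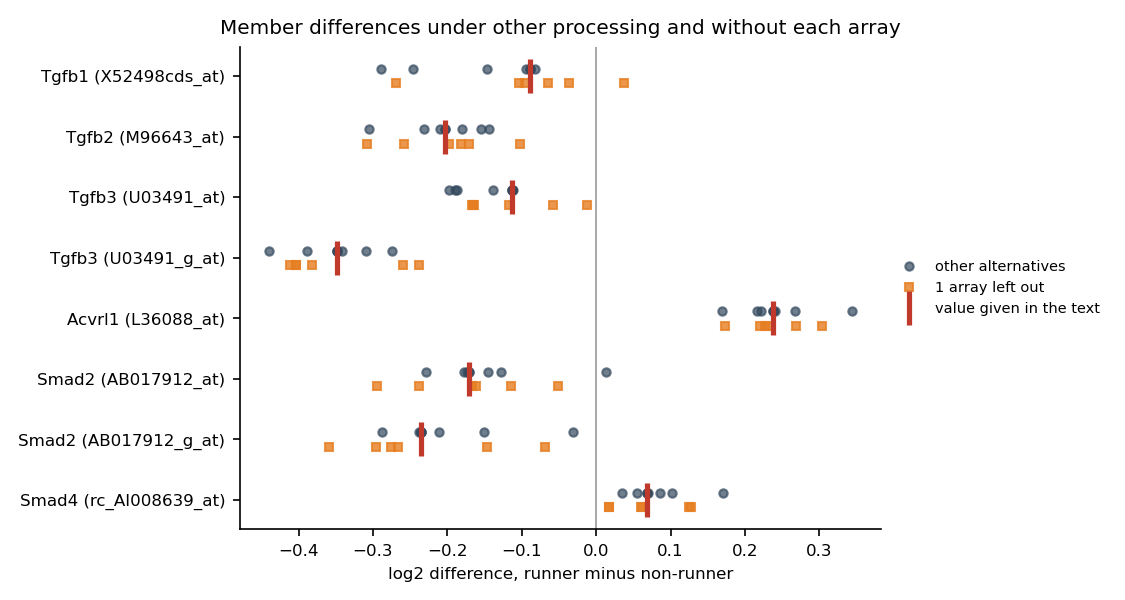
Log2 difference, runner minus non-runner (x axis), of the 8 member probe sets as given in the text (red bar), under other processing (blue circles) and with 1 array left out (orange squares). Tgfb1 crosses 0 without non-runner C and the first Smad2 probe set with the beta-actin covariate, while the other 6 probe sets keep their sign throughout.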

How the data were processed

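Total RNA of pooled rat aortae was measured on 6 Affymetrix arrays, 3 runner and 3 non-runner, grouped by their titles. The deposited table holds linear intensity values, 1 per probe set and array. The software and background correction that made them are not given in the sources used here. The authors' values had a trimmed mean near 100 on every array (2% left out at each end). Of 8799 probe sets, 7006 had 1 gene symbol, 308 several, 1426 none, and 59 were controls. No read depth applies, so the number of arrays limits the precision.

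A pseudocount of 2.4, the 10th percentile of positive values, was added before log2. Array medians differed by up to 1.13 times, over a limit of 10%, and quantile normalization of the log2 values followed. The dimmest 40% of probe sets and the controls were left out. Groups were compared with limma 3.58.1 in R 4.3.3 (lmFit, eBayes, two-sided, Benjamini-Hochberg over 5244 probe sets, threshold 0.05). The fit was tried on simulated data with independent noise between arrays and no outlying array. That run does not bear on whether the groups were alike. Non-overlap of groups refers to the deposited intensities. The exact permutation test was not used, since 3 arrays against 3 cannot go below p = 0.1. No fold is given where both groups read below the control level throughout, or where 1 group did and the mean of the brighter one did not exceed that level. One covariate, the beta-actin 3'/5' ratio, was tried among the alternatives. Marker sums without Egfl7 or Hbb were added after seeing the data.

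The members and gene lists were chosen with earlier results of these data known. Named pathway genes were up to 4 of each list with the smallest p, plus Eng, Ccn2, Ltbp1, Dcn, Smad7 and Furin; another gene of that rule is not reported here. The chip letters A, B and C were shared by the groups, and the runner titles also carry D, E and F. Arrays with the same letter did not deviate together from their group means (correlations of deviations -0.085, -0.041 and -0.051). These correlations cannot show whether the arrays were paired by design. Gene symbols were checked against the GRCr8 gene table, and figures were drawn with matplotlib 3.10.9.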

Additional observations from a re-analysis of the deposited data

How the results depend on the processing

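No result for a member depended on the processing for its call, since 0 passed limma under any alternative run; the smallest adjusted p for a member probe set was 0.252, with array quality weights. The count of called probe sets was 0 in each alternative that kept 6 arrays, with 298 to 617 at an unadjusted p under 0.05, except 1 (lower) with array quality weights. Leaving out each array gave 0 to 4, with 2 without non-runner A and 4 without non-runner C. With the chip letter as a replicate block 0 were called and the member median stayed at -0.14. That median was -0.21 with median centring, which moved the median of all probe sets to -0.045, and -0.033 over 14 probe sets with no filter. Leaving out 1 array at a time gave -0.20 to -0.096. Of 112 results for member probe sets, 110 kept their sign, the exceptions being Tgfb1 without non-runner C (leave-one-out range -0.27 to 0.038) and the first Smad2 probe set with the beta-actin covariate (0.013). Among named pathway genes, 18 of 266 changed sign. With that covariate these were Ltbp1 (0.32), Ltbp2 (-0.043), Acvr2b (-0.091), Bmpr1a (0.035), Fstl1 (0.13), Fkbp1a (0.056) and Cav1 (-0.14). With array quality weights they were Ltbp1 (0.13) and Fstl1 (0.0020), and with median centring Furin (-0.0011). As arrays were left out the values ran from -0.17 to 0.22 for Ltbp1, -0.29 to 0.091 for Bmpr1a, -0.0018 to 0.29 for Acvr2b, -0.24 to 0.060 for Fstl1, -0.0080 to 0.37 for Cav1 and -0.025 to 0.14 for Furin. The cause of these changes was not tested. Low signal limits Tgfbr1, Tgfbr3 and Smad3, for which no difference can be given.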
